A study of Mus musculus with 24 samples.

Results

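The cytosolic ribosomal protein genes were described here in thymocytes of 2 mouse strains before and after the cells met the selection step that keeps or deletes T cells. On the expression array, 48 genes with a symbol beginning Rpl or Rps had a probeset of their own, that is, a set of short probes annotated with a single gene symbol. The 46 of them whose best probeset had a mean signal of at least 32 over the 24 arrays were kept, each by its brightest probeset, out of 12393 genes with such a probeset. Just outside this minimum lay Rpl3l, with a mean signal of 5.79, and Rps4l, with 1.46, whereas the dimmest genes inside it were Rpl27a with 54.0, Rps27 with 56.2 and Rpl39l with 57.2. All 46 genes passed the filter on low signals, which kept 12838 of 22626 probesets. Another 28 genes of the family had only probesets shared with other symbols, mostly processed pseudogenes, and did not enter the group.

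RNA was measured in sorted thymocytes from mice carrying the 3A9 T cell receptor (TCR) transgene, which recognizes a peptide of hen egg lysozyme on the class II molecule I-Ak. Both strains, B10k (C57BL10.H2k) and NODk, carried the H2k haplotype, and NOD is the strain that develops autoimmune diabetes. PreS cells were sorted as CD4+CD8+, CD69- and negative for the clonotype of the transgenic receptor. They came from TCR mice and from TCR insHEL mice, which also carry lysozyme under the insulin promoter and make it in medullary thymic epithelium. S+ cells were early single positive cells (CD4+CD8low, CD69+ and positive for the clonotype) of TCR mice, which undergo positive selection. S- cells were the same sort from TCR insHEL mice, which undergo negative selection. All mice were female and 6 to 8 weeks old, transcription inhibitors were present during staining, and each of the 8 conditions had 3 arrays of independent pools. Within a strain the PreS arrays of both genotypes were merged, so that each strain had 6 PreS, 3 S+ and 3 S- arrays.

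Ribosomal proteins assemble with ribosomal RNA into the small subunit, which reads the message, and the large subunit, which joins the amino acids. Their messages are short, abundant and mostly begin with a C followed by a run of pyrimidines, the terminal oligopyrimidine (TOP) element through which mTOR controls their translation, while Myc raises their transcription in growing cells. Most double positive thymocytes are small resting cells, although the paper describes early double positive cells, its name for the PreS sort, as cycling. Rpl22 and its paralogue Rpl22l1 are known for roles in T cell development outside the ribosome.

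The group held 20 genes of the small subunit (Rps2, Rps3, Rps3a1, Rps4x, Rps6, Rps7, Rps9, Rps10, Rps14, Rps15, Rps18, Rps19, Rps20, Rps24, Rps25, Rps26, Rps27, Rps28, Rps29 and Rpsa). It held 20 genes of the large subunit (Rpl4, Rpl6, Rpl7, Rpl7a, Rpl8, Rpl10a, Rpl11, Rpl12, Rpl13a, Rpl14, Rpl19, Rpl22, Rpl27, Rpl27a, Rpl35, Rpl37, Rpl37a, Rpl38, Rpl39 and Rpl41), together with Rplp0 and Rplp2 of its stalk. The remaining 4 were the paralogues Rpl22l1, Rps27l, Rpl39l and Rpl7l1.

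Transcription starts of 41 of the 46 genes were found in RefSeq (mouse build GRCm38.p6). The start was read on the coding strand only, and 8 of the 41 genes (19.5%) had, at a listed start, a C followed by 4 bases that are each C or T, compared with 813 of the 27025 genes with a listed start (3.01%). This match is to letters at an annotated start and is not a measured TOP element. Shown first are 4 genes with the match, each as 15 bases before the start and 15 from the start on, with the first 5 transcribed bases in capitals.
Rpl35, chr2:39005117-39005146, minus strand: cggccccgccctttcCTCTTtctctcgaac
Rps18, chr17:33955651-33955680, minus strand: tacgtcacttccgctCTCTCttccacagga
Rpl38, chr11:114668565-114668594, plus strand: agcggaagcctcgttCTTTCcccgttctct
Rps6, chr4:86857353-86857382, minus strand: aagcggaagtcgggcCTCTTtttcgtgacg

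The next 4 starts, in the same form, belong to Rpl12 and to the 3 paralogues whose signals differed most clearly between cell stages. None of these 4 has the C at the start, although pyrimidines follow directly after the first G in Rpl12, Rpl22l1 and Rps27l.
Rpl12, chr2:32961697-32961726, plus strand: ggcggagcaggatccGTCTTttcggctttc
Rpl22l1, chr3:28805493-28805522, plus strand: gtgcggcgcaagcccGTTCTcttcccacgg
Rps27l, chr9:66946071-66946100, plus strand: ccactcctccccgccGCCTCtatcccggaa
Rpl39l, chr16:10170213-10170242, plus strand: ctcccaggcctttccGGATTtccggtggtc

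The stage of the cells was checked against marker genes. The summed signal of 6 pre-selection markers (Rag1, Rag2, Ptcra, Dntt, Cd8a and Cd8b1) lay between 4525 and 6134 in B10k PreS and between 659 and 871 in B10k S+. It lay between 8473 and 15042 in NODk PreS against 3338 to 4585 in NODk S+. In S- it was 879 to 1239 in B10k and 1969 to 2785 in NODk. Dntt was the brightest of the 6 in NODk, with group means of 6174 in PreS and 2926 in S+. In B10k its group means were 544 in PreS and 148 in S+. Of 5 early single positive markers tested, 4 were called higher than in PreS (limma adjusted p under 0.05) in S+ and in S- of each strain. Ccr7, a chemokine receptor of medullary thymocytes, rose in S+ cells by 4.75 (B10k) and 4.69 (NODk) on the log2 scale. Cd5 was lower in NODk S+, with a group mean of 971 against 1099 in NODk PreS. Of the B cell markers, Ighm had group means of 1772 to 4498 and Cd79a of 31.7 to 59.4. In NODk S+ against PreS the group means were 1118 against 463 for Cd74, 93.2 against 39.5 for Ms4a1 and 59.4 against 33.5 for Cd79a. Those of Ighm (2254 against 4498) and Cd79b (54.6 against 93.9) were lower. The 5 tested genes of the list had a median difference of 0.64 on the log2 scale. Of these, 3 were positive, 0 were called higher and 1 was called lower. In all arrays 3 erythroid genes summed to 304 at most, and the part of these markers in the results was not tested. RNA was amplified in 2 rounds, which shortens messages from their 5' end. The log2 ratio of 3' to 5' signal of the control probesets, a measure of this, ran from 1.06 to 2.75 in B10k PreS, from 1.41 to 4.94 in NODk PreS and from 0.990 to 2.46 in B10k S-. It was 1.39, 1.47 and 4.02 in B10k S+, 1.59, 5.15 and 5.82 in NODk S+, and 1.44 to 3.12 in NODk S-. The part of this ratio in the results below was not tested except as a covariate and by leaving out arrays.

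MAS 5.0 signals of the 46 genes ranged from 12.4 to 12716 over all arrays, and 35 genes had a mean signal of at least 1000. A probeset's brightness depends on its probes, so signals are compared between samples and not between genes. The lowest, median and highest signals of Rps3, a small subunit protein at the mRNA entry channel, were 4324, 5277 and 5881 in B10k PreS and 4838, 5445 and 10116 in NODk PreS. Its signals were 5486, 6398 and 7908 in B10k S+, 4676, 6448 and 7696 in B10k S-, 4493, 7154 and 8302 in NODk S+, and 4891, 5275 and 5900 in NODk S-. The groups overlapped throughout, and this was the usual pattern. Group means on the log2 scale spanned less than 1 (a 2-fold difference) in 35 of the 46 genes and in 57.1% of all probesets tested. The median residual standard deviation within groups was 0.40 for the members on the log2 scale, against 0.42 for all probesets tested.

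**Figure D1:**
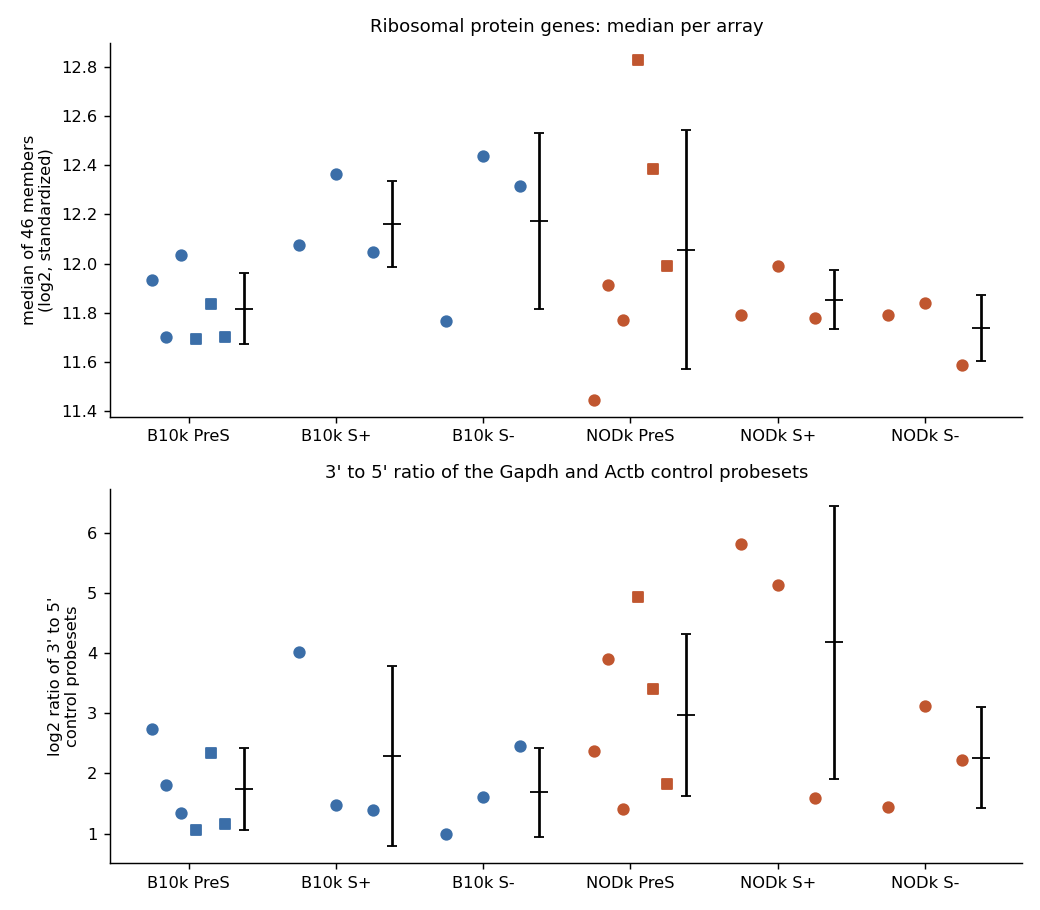
Median of the 46 ribosomal protein genes on each array (standardized log2 signal, upper panel) and log2 ratio of 3' to 5' signal of the control probesets on the same arrays (lower panel), by strain and stage. Points are arrays, squares are PreS arrays of TCR insHEL mice, and bars give the mean and SD. B10k S+ arrays lie at 12.16 ± 0.18 against 11.82 ± 0.14 in B10k PreS, while the NODk PreS arrays spread over 12.06 ± 0.49.

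The genes also varied together from array to array. Taking each gene's deviation from its group mean, the median correlation between pairs of the 35 brighter members was 0.78, against 0.30 between pairs of the 995 other probesets of mean signal at least 1000. These are descriptions over the same 24 arrays, which share scaling and RNA quality. The median of the 46 genes per array, on the standardized log2 scale, was 11.82 ± 0.14 in B10k PreS (SD, n = 6), 12.16 ± 0.18 in B10k S+ (n = 3) and 12.17 ± 0.36 in B10k S- (n = 3). It was 12.06 ± 0.49 in NODk PreS (n = 6), 11.85 ± 0.12 in NODk S+ (n = 3) and 11.74 ± 0.13 in NODk S- (n = 3). The 46 probesets together took between 2.77% and 4.45% of the summed signal of an array.

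The first comparison asked how the genes change on positive selection in B10k. In S+ against PreS, Rpl22l1, the paralogue of Rpl22, and Rpl12, a protein of the stalk base, rose, and Rps27l, the paralogue of Rps27 that p53 activates, fell. These 3 of 46 genes (6.52%) passed an adjusted p of 0.05, while 16.8% of all probesets and 149 of the 995 other probesets of mean signal at least 1000 did. The median difference over the 46 genes was 0.40 on the log2 scale and 42 of the 46 were positive, against a median of 0.04 over all probesets tested and 0.08 over those 995 other bright probesets. On the standardized scale, on which overlap was counted throughout, S+ and PreS arrays did not overlap in 13 of the 46 genes, 12 of them higher in S+, while 19.0% of all probesets did not overlap. With bulk RNA, fewer cells of a type and less RNA per cell cannot be told apart.

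Rpl22l1 signals in B10k PreS were 1300, 1449 and 2270 at the lowest, median and highest, and 2576, 2880 and 2178 in the S+ arrays. The groups overlapped because the lowest S+ array lay under the highest PreS array, and the difference was 0.75 ± 0.21 (SE) on the log2 scale (limma, adjusted p = 0.0257). Rpl12 was at 109, 165 and 223 in PreS (lowest, median, highest) and at 303, 305 and 234 in S+. Every S+ array exceeded every PreS array, with a difference of 0.75 ± 0.24 (limma, adjusted p = 0.0480). This probeset of Rpl12 was dim, with a mean signal of 224, and the study's annotation also gave it the name Snora65, a small nucleolar RNA. Another 2 probesets annotated to Rpl12 and to other symbols were far brighter, with means of 5619 and 3302, and differed by 0.51 (adjusted p = 0.136) and 0.43 (adjusted p = 0.205). The probesets that carried a call in any comparison below, those of Rpl12, Rpl22l1, Rps27l, Rpl39l, Rps6 and Rpl8, were all among those the study listed from these same arrays, so their directions are not independent evidence.

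Rps27l lay at 745, 900 and 1604 in PreS (lowest, median, highest) and at 517, 373 and 745 in S+. The highest S+ array was about level with the lowest PreS array, and the fall was -0.90 ± 0.28 (limma, adjusted p = 0.0421). Its other 2 probesets differed in the same direction, by -0.92 (adjusted p = 0.0227) and -0.72 (adjusted p = 0.0615). Rpl39l, a paralogue of Rpl39 best known from testis, was dim, at 39.6 to 81.9 in PreS and 33.1, 16.9 and 40.7 in S+, and its difference of -1.17 ± 0.42 did not pass (limma, adjusted p = 0.0753).

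The rest of the group differed less, and nearly all upward. The 95% interval of the difference lay within 1 log2 unit of 0 in 32 of the 46 genes. Rps3 differed by 0.42 ± 0.21, Rplp2, a stalk protein that recruits elongation factors, by 0.42 ± 0.22, and Rpl41, the smallest ribosomal protein, by 0.52 ± 0.25, none of which passed. After quantile normalization the median of the 46 genes was 0.03 in place of 0.40, and it was 0.19 and 0.69 on the 2 hybridization days that held an array of each stage. No member passed without S+ replicate 1 (the array with the log2 ratio of 4.02), S+ replicate 2 or PreS TCR insHEL replicate 3, and Rpl12 and Rps27l both did not pass without PreS TCR replicate 1, PreS TCR replicate 3 or PreS TCR insHEL replicate 2, nor Rpl12 without S+ replicate 3 (adjusted p = 0.0539) or Rps27l without PreS TCR replicate 2 (adjusted p = 0.0534).

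**Figure D2:**
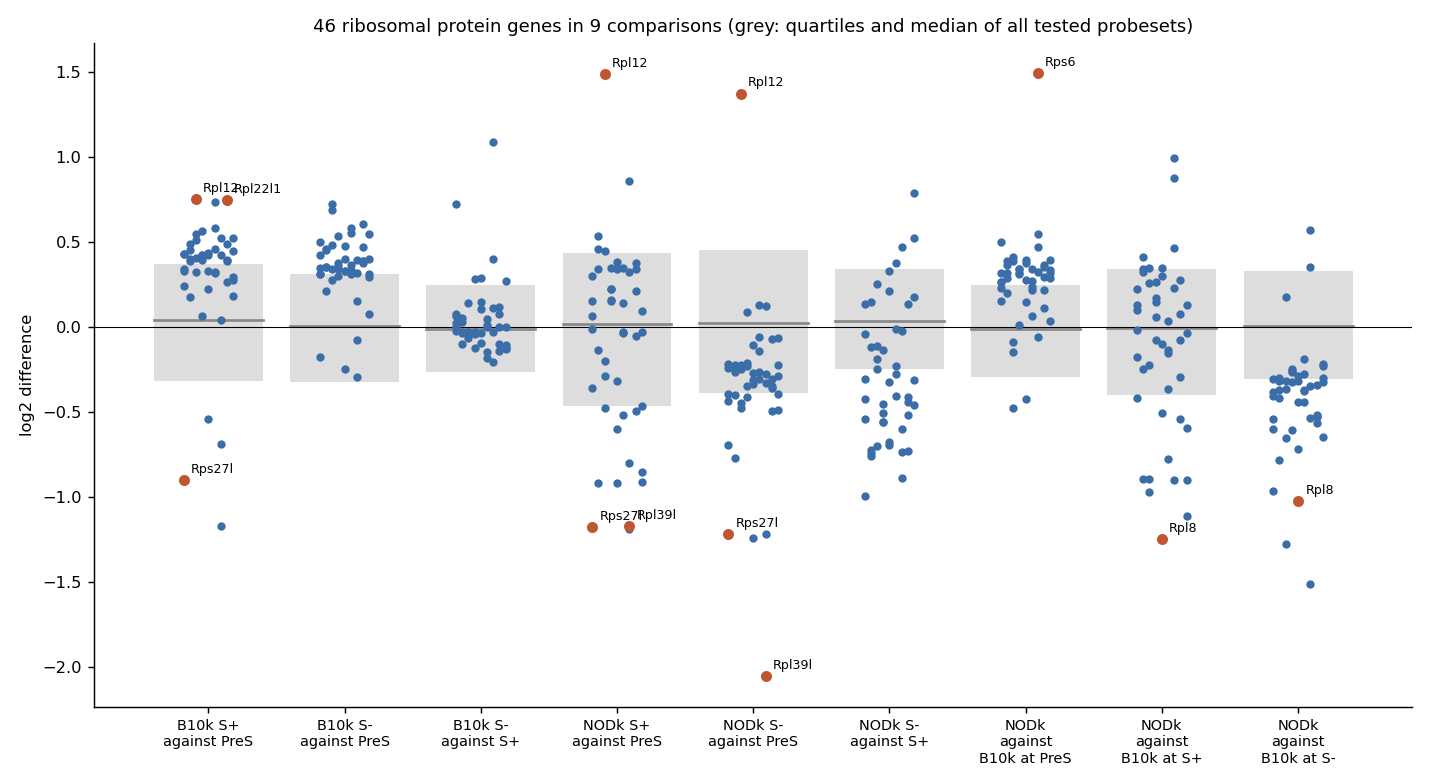
Log2 difference of each of the 46 ribosomal protein genes in 9 comparisons (points), with the median and quartiles of all 12838 probesets tested in grey. Orange points passed an adjusted p of 0.05 and are named. In B10k S+ against PreS 42 of 46 genes lie above 0, and in NODk S- against PreS 4 do.

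On negative selection in B10k, S- against PreS, no member passed by limma (8 at an unadjusted p under 0.05), against 11.2% of all probesets. The median was 0.36, with 42 of 46 genes positive, beside 0.01 over all probesets and 0.11 over the other bright ones, and after quantile normalization it was 0.01. Both this and the preceding comparison used the same PreS arrays. S- and PreS arrays did not overlap in 3 genes, against 17.3% of all probesets.

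Rpl22l1 signals in S- were 1933, 2745 and 2173, a difference of 0.61 from PreS (limma, adjusted p = 0.0857). Those of Rpl12 were 294, 236 and 304, all above PreS, with a difference of 0.72 (adjusted p = 0.0750). Rps27l was at 892, 1095 and 651 in S-, within the PreS range except for the last array, and its difference was -0.18 (adjusted p = 0.750).

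S- and S+ cells of B10k were then set against each other, which asks whether negative and positive selection differ. No member passed by limma (2 at an unadjusted p under 0.05), against 1.67% of all probesets, and the median difference was -0.01. In none of the 46 genes did the groups separate, against 16.2% of all probesets. The 95% interval lay within 1 log2 unit of 0 in 42 of the 46 genes. Rps27l in S+ (373 to 745) and in S- (651 to 1095) overlapped.

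In NODk, S+ against PreS, the members did not share a direction. Rpl12 rose, Rps27l and Rpl39l fell, and these 3 genes (6.52%) compare with 14.8% of all probesets. The median over the 46 genes was 0.03, with 23 positive and 23 negative. S+ and PreS arrays did not overlap in 3 genes, against 15.9% of all probesets. The 95% interval lay within 1 log2 unit of 0 in 17 of the 46 genes, and the median SE was 0.33, against 0.22 in B10k.

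Rpl12 signals in NODk PreS were 49.4, 103 and 196 (lowest, median, highest) and 348, 260 and 408 in S+. All 3 S+ arrays stood above all PreS arrays, and the difference was 1.48 ± 0.35 (limma, adjusted p = 0.0150), a 2.80-fold rise. The 2 brighter probesets shared by Rpl12 and other symbols did not show it, at 0.06 (adjusted p = 0.922) and -0.47 (adjusted p = 0.293). Rps27l was at 848, 1328 and 1949 in PreS (lowest, median, highest) and at 633, 556 and 597 in S+. Here all S+ arrays lay under all PreS arrays, with a difference of -1.18 ± 0.28 (limma, adjusted p = 0.0158), and its other 2 probesets passed too, at -1.25 and -0.98.

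Rpl39l was at 56.2, 78.6 and 122 in PreS (lowest, median, highest) and at 45.7, 37.3 and 42.8 in S+, again without overlap, with a difference of -1.17 ± 0.32 (limma, adjusted p = 0.0299). Rpl22l1, at 1865, 2571 and 1500 in S+ against 1074 to 2269 in PreS, differed by 0.34 (adjusted p = 0.481). Rpl11, a large subunit protein that binds Mdm2, was at 2753 or lower in S+ and at 2317 or higher in PreS, a difference of -0.91 ± 0.35 that did not pass (adjusted p = 0.0969). Rps25 differed by 0.86 ± 0.31 (adjusted p = 0.0837). Rps6 was at 363, 251 and 281 in S+ against 292 to 1338 in PreS, a difference of -1.19 (adjusted p = 0.0607).

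The 3 arrays of highest 3' to 5' ratio were 2 of the NODk S+ and 1 of the NODk PreS arrays. Without them no member passed, with the lone S+ array taken to vary like the other groups, although Rpl12 kept a difference of 1.53 and Rps27l of -1.10, and without NODk S+ replicate 3 there were 8 calls. Rpl12 did not pass without S+ replicate 1 (adjusted p = 0.0667), Rps27l without S+ replicate 2 (0.0744), nor Rpl39l without either of these or PreS TCR replicate 2 or 3 (0.0502 to 0.130). The only day that held both stages gave a member median of 0.46. The summed signal of 7 myeloid and dendritic markers was also higher in NODk S+ (564 to 1248) than in NODk PreS (176 to 426), with Csf1r, the receptor of macrophage growth factor, 2.37 higher on the log2 scale, and 2 of the 7 markers had a mean signal under 32 in NODk S+; their part in the result was not tested.

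**Figure D3:**
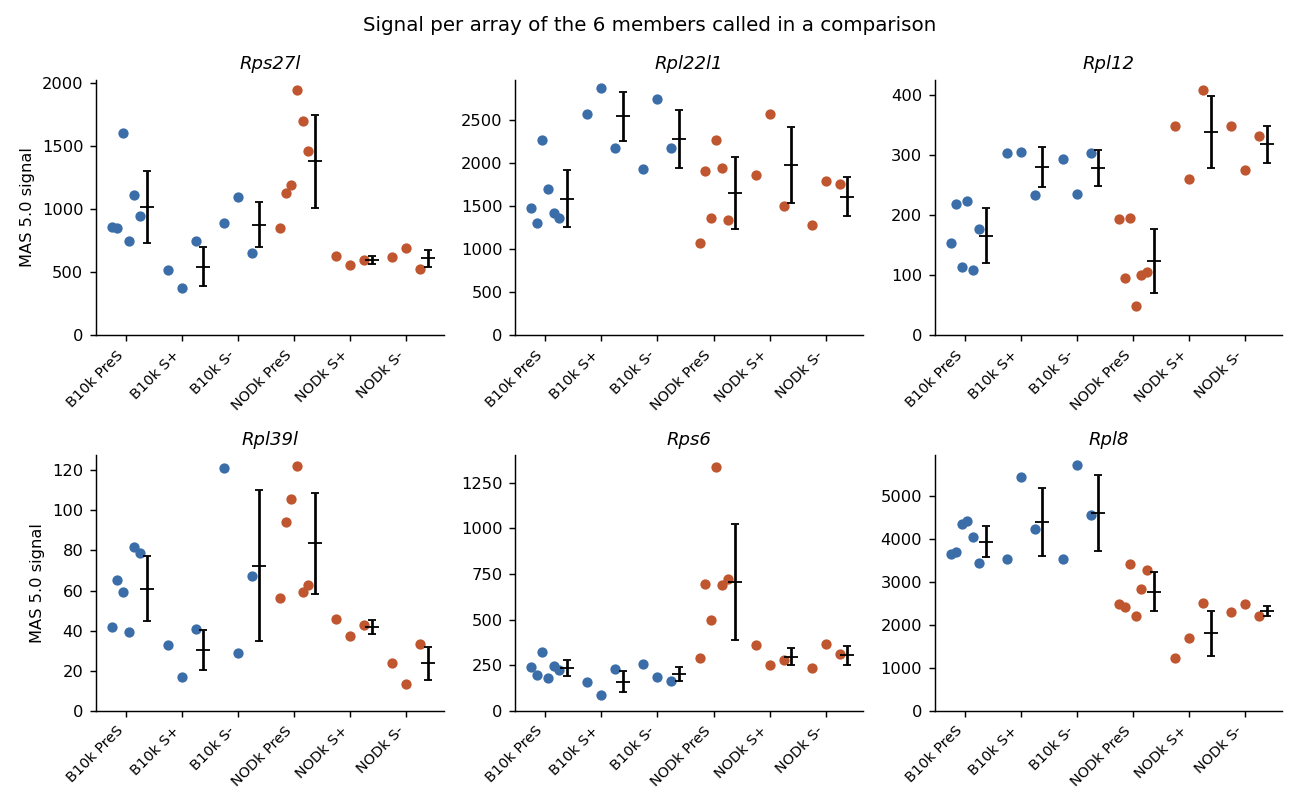
MAS 5.0 signal of the 6 ribosomal protein genes that passed an adjusted p of 0.05 in at least 1 of 9 comparisons, per array (points), with mean and SD of each strain and stage. Rpl12 is higher and Rps27l lower in S+ than in PreS of both strains, and Rpl8 lies at 1228 to 2498 in NODk S+ and at 3520 to 5432 in B10k S+.

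In NODk S- against PreS, the same 3 genes passed, Rpl12 higher and Rps27l and Rpl39l lower, against 11.2% of all probesets called. Both NODk comparisons used the same PreS arrays. The median over the 46 genes was -0.30 and 42 were negative, while the median of the other bright probesets was -0.34. With hybridization day as a block the member median was 0.46, and no day held arrays of both NODk S- and NODk PreS. That value was linked to PreS only through the day with 1 NODk S+ and 1 NODk PreS array. This S+ array had a log2 ratio of 5.15. S- and PreS arrays did not overlap in those 3 genes, against 21.0% of all probesets.

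Rpl39l signals in NODk S- were 23.9, 13.6 and 33.5, all under the lowest PreS array of 56.2. The fall of -2.05 ± 0.32 (limma, adjusted p = 0.0013), or 4.15-fold, was the most negative difference of any member in any of the 9 comparisons. However, each of these S- signals of Rpl39l lay under the median signal of all probesets on its array (47.8, 38.2 and 40.9). The paper describes its signal method as less accurate than some alternatives for dim probesets, so the size of this fall is uncertain. Rpl12 was at 348, 275 and 331, a difference of 1.37 ± 0.35 (adjusted p = 0.0242), where its 2 brighter shared probesets differed by -0.26 (adjusted p = 0.620) and -0.25 (adjusted p = 0.624). Rps27l was at 618, 689 and 523, a difference of -1.22 ± 0.28 (adjusted p = 0.0149). Rpl12 no longer passed when any single S- array was left out (adjusted p up to 0.105), nor did Rps27l without S- replicate 1 (0.0550) or S- replicate 3 (0.0967), and 5 members passed without NODk PreS TCR replicate 1. With all arrays of log2 ratio over 3 removed, a choice made after seeing the data, none of the 3 passed, at -1.62 for Rpl39l (adjusted p = 0.0583), 0.97 for Rpl12 (adjusted p = 0.151) and -1.04 for Rps27l (adjusted p = 0.124).

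Between S- and S+ of NODk no member passed by limma (1 at an unadjusted p under 0.05), and neither did any probeset (0.00% of all, 565 at an unadjusted p under 0.05). The median of the members was -0.32 and 35 were negative, close to the -0.33 of the other bright probesets. S- and S+ arrays did not overlap in 5 members, all lower in S-, against 8.54% of all probesets. With the 3' to 5' ratio as a covariate the member median was 0.04, and it was 0.04 after quantile normalization.

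The strains were compared next at each stage. At PreS, Rps6, the small subunit protein phosphorylated downstream of mTOR, was higher in NODk, and it was the only 1 of 46 genes to pass, against 4.13% of all probesets. Its signals were 183, 233 and 324 in B10k PreS (lowest, median, highest) and 292, 694 and 1338 in NODk PreS. The ranges overlapped at their ends, and the difference was 1.49 ± 0.30 (limma, adjusted p = 0.0029), or 2.81-fold. This probeset was dim, with a mean signal of 357. Another 8 probesets shared by Rps6 and a pseudogene, 4 of them with mean signals of 4059 to 6699, differed by -0.02 to 0.75, and none passed (lowest adjusted p = 0.110). On the 3 hybridization days that held PreS arrays of both strains it was 1.57, 1.61 and 1.56. With the day as a block it did not pass (adjusted p = 0.104), nor without the arrays of log2 ratio over 3 (1.02, adjusted p = 0.163).

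The other members differed less between the strains at PreS. The median was 0.30, with 41 of 46 positive, against 0.27 for the other bright probesets, and the intervals of 41 genes lay within 1 log2 unit of 0. PreS arrays of the strains overlapped in all 46 genes on the standardized scale, while 3.23% of all probesets did not overlap. After quantile normalization the median was -0.02.

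At S+, Rpl8, a large subunit protein near the peptidyl transferase center, was lower in NODk, the only 1 of 46 genes to pass, against 3.70% of all probesets. Its signals were 3520, 5432 and 4216 in B10k S+ and 1228, 1691 and 2498 in NODk S+. The groups did not overlap, and the difference was -1.25 ± 0.24 (limma, adjusted p = 0.0036). Arrays of the strains did not overlap in 9 members, 2 of them higher in NODk, against 14.0% of all probesets.

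Rps9 differed by -1.11 (adjusted p = 0.0726), Rps19, the gene most often mutated in Diamond-Blackfan anemia, by -0.97 (adjusted p = 0.0933) and Rplp0 by -0.77 (adjusted p = 0.117). None of these 3 passed. The median of the members was -0.03, beside 0.22 for the other bright probesets, and -0.39 with the 3' to 5' ratio as a covariate. Rpl8 did not pass without the 3 arrays of highest ratio (-0.82, adjusted p = 0.405), and leaving out NODk S+ replicate 3 gave 8 calls; no hybridization day held S+ arrays of both strains. Marker genes of other cells also differed at S+. In NODk against B10k the median was 1.38 for the myeloid and dendritic list (5 of 5 tested positive, 1 called higher), 0.86 for the B cell list (5 of 5 positive, 1 called higher) and 1.31 for the pre-selection list (5 of 6 positive, 3 called higher), and their part in the result was not tested.

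At S-, Rpl8 was again lower in NODk, at 2297, 2480 and 2210 against 3531, 5712 and 4563 in B10k. The groups did not overlap, the difference was -1.02 ± 0.24 (limma, adjusted p = 0.0206), and 2.32% of all probesets passed. No other member passed. The median was -0.37 with 43 of 46 negative, against -0.21 for the other bright probesets, and arrays did not overlap in 10 members, 1 higher in NODk, against 28.5% of all probesets. The call was lost without B10k S- replicate 2 (adjusted p = 0.150), B10k S- replicate 3 (0.0666) or any 1 of the NODk S- arrays (0.0518 to 0.121), while the difference on the 1 day with both strains was -1.29. At PreS Rpl8 was at 3445 to 4404 in B10k and 2216 to 3424 in NODk, which overlapped only after standardization. The difference was -0.42 (limma, adjusted p = 0.192). After quantile normalization it was -0.77 (limma, adjusted p = 0.0364), and it also passed at the methods' own thresholds. From these same arrays, the paper places this probeset among those significantly lower in NODk in every condition.

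Whether the stage differences themselves differed between the strains was tested by the interaction. For S+ against PreS no member passed by limma (9 at an unadjusted p under 0.05), against 0.358% of all probesets, with a median of -0.35 and 41 of 46 negative. For S- against S+ none passed (1 at an unadjusted p under 0.05), against 0.148% of all probesets, with a median of -0.40, beside -0.35 for the other bright probesets. The interaction was 0.73 for Rpl12 (adjusted p = 0.693), -0.28 for Rps27l (adjusted p = 0.920) and -0.82 for Rpl8 (adjusted p = 0.338) in S+ against PreS. Side by side, 23 genes were higher in S+ than PreS in both strains, 4 were lower in both, and 19 were higher in B10k and lower in NODk.

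The merging of the PreS genotypes was examined, since PreS cells have not yet met the antigen. In B10k, TCR insHEL against TCR gave a median of -0.18 with no member called (1 at an unadjusted p under 0.05), and 0.00% of all probesets passed. In NODk the median was 0.66 with 43 of 46 positive, beside 0.41 for the other bright probesets, and no member called by limma (14 at an unadjusted p under 0.05), against 0.0312% of all probesets. The median of the 46 genes per array was 12.40 ± 0.42 in NODk TCR insHEL and 11.71 ± 0.24 in NODk TCR (SD, n = 3 each). This spread lies inside the NODk PreS group and enters every NODk comparison with PreS. Rpl41, for instance, was at 5587, 5775 and 6458 in NODk PreS TCR and at 5937, 9852 and 12716 in NODk PreS TCR insHEL. In the same order, the log2 ratios of 3' to 5' signal were 1.41, 2.37 and 3.91 in TCR and 1.82, 3.40 and 4.94 in TCR insHEL. The part of the ratio in this genotype difference was not tested.

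The dependence of each gene on the 3' to 5' ratio was then measured within groups, as the slope of log2 signal on log2 ratio. Slopes were positive in 39 of 46 members and 21 (45.7%) passed, all positive. Of all 12838 probesets 37.4% passed, 2058 of them with a positive slope, and of the 995 other bright ones 62.7% passed. The median slope was 0.16 per unit of log2 ratio, and the steepest were those of Rpl27a (0.40), Rpl37a (0.32) and Rps29 (0.32). Rpl12 (-0.18), Rpl22 (-0.17), Rps9 (-0.14) and Rpl8 (-0.11) had negative slopes, none of which passed.

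Members with small or negative slopes were 11 genes, at a limit of 0.05 set after the slopes were seen. In the NODk S+ comparisons below, these 11 showed another profile than the remaining 35. Their median for NODk S+ against PreS was -0.60 with 1 of 11 positive, and that of the 35 was 0.15 with 22 positive. For NODk against B10k at S+ the medians were -0.90 and 0.08. In B10k S+ against PreS they lay closer, at 0.28 and 0.42. In NODk S- against PreS they were alike, at -0.27 (1 of 11 positive) and -0.31 (3 of 35 positive). No test was made of this split, as the slopes came from the same arrays.

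**Figure D4:**
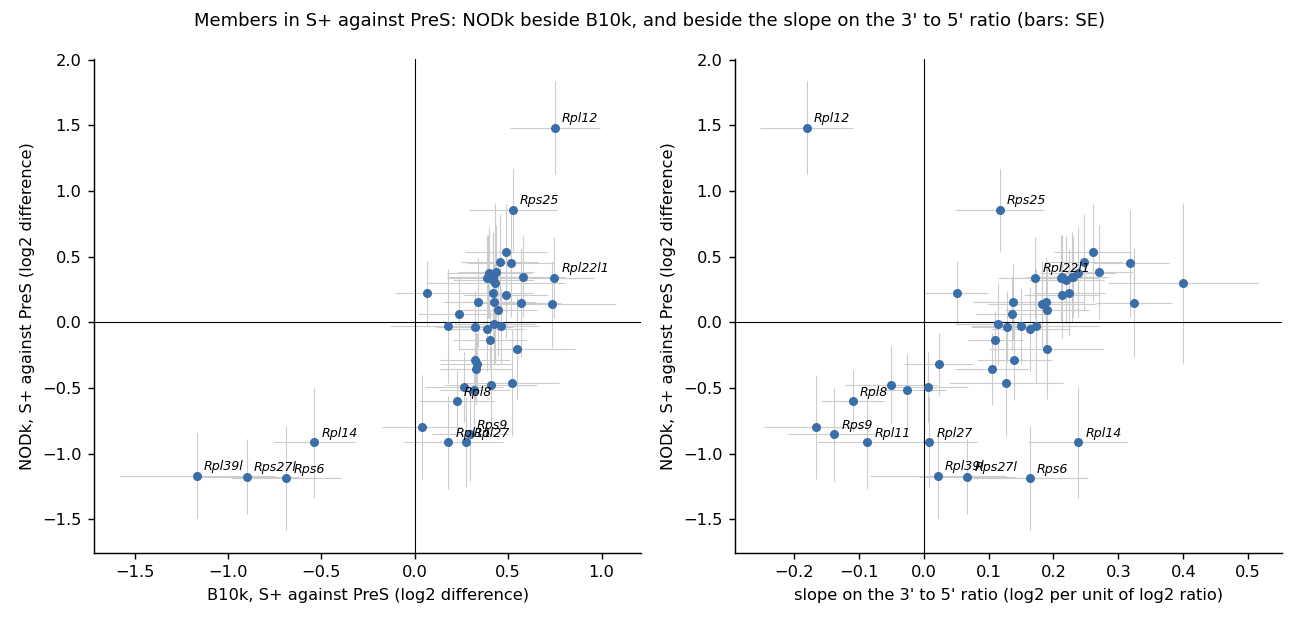
Left, log2 difference of S+ against PreS in B10k (x axis) and in NODk (y axis) for each of the 46 ribosomal protein genes, with SE bars. Right, slope of log2 signal on the log2 ratio of 3' to 5' signal (x axis) against the NODk S+ difference from PreS (y axis), where the 11 genes with slopes of at most 0.05 have a median difference of -0.60.

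Other probesets of the same genes gave a second reading. Of 42 that passed the filter, 0 to 5 per comparison were called, with medians of 0.35 in B10k S+, -0.05 in NODk S+ and -0.32 in NODk S- against PreS, and no gene had calls in opposite directions. The following were picked out after their values were seen. A second probeset of Rps9 was lower in NODk at PreS (-2.53, adjusted p = 7.6e-05), S+ (-2.80, adjusted p = 0.00197) and S- (-3.40, adjusted p = 0.00036), while the brightest probeset of Rps9 differed by 0.04, -1.11 and -0.32. A second probeset of Rps24 was likewise lower in NODk, by -1.03, -2.10 and -2.07, where its brightest probeset differed by 0.27, 0.04 and -0.37. Both second probesets were among those the study listed from these same arrays, so their directions are not independent evidence. Such probesets read different parts of a message, and a strain polymorphism under the probes was not tested. The 95 probesets shared between family members and other symbols held 0 to 2 calls per comparison, and their medians against PreS were 0.37 in B10k S+, 0.37 in B10k S-, 0.07 in NODk S+ and -0.28 in NODk S-.

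Genes with related functions were summarized as lists. Of 74 mitochondrial ribosomal proteins, which build the separate ribosome of the mitochondrion, 11 fell and none rose in B10k S+ against PreS (median -0.35), and 24 fell and none rose in NODk S+ (median -0.75). In S- against PreS 3 fell and 1 rose in B10k (median -0.18), and 15 fell and none rose in NODk (median -0.57). Of all probesets tested, 9.44% fell in B10k S+, 8.66% in NODk S+, 6.80% in B10k S- and 5.68% in NODk S-. The cytosolic members had medians of 0.40, 0.03, 0.36 and -0.30 in the same comparisons. The 2 lists also differed in their slopes on the 3' to 5' ratio. Of the 74 mitochondrial genes, 22 had a negative slope that passed and 6 a positive one (median -0.08). Of the 46 cytosolic members, 21 passed with a positive slope and 0 with a negative one (median 0.16). Among all 12838 probesets, 2737 passed with a negative slope and 2058 with a positive one. The part of the ratio in this contrast was not tested. Of 57 factors that assemble ribosomes in the nucleolus, 6 fell in B10k S+ (median -0.30) and 4 in NODk S+ (median -0.40). These shares of falls were close to those of all probesets. None of the 57 rose in either, while 7.37% of all probesets rose in B10k S+ and 6.13% in NODk S+. Differences were positive in 11 of the 57 in B10k S+ and in 19 in NODk S+. Wdr12, needed for the large subunit, fell by 1.59 in B10k S+ and by 1.97 in NODk S+, and Nop56, a core protein of methylation-guiding particles, fell by 1.20 in B10k S+.

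Among 20 translation factors and other TOP messages, 1 rose in B10k S+ against PreS (median 0.16), and 1 rose and 4 fell in NODk S+ (median -0.13). Hnrnpa1 was the gene that rose in both, by 0.71 and 1.29, while Eif3k, Eif3h and Naca fell by 1.36, 1.27 and 1.32 in NODk S+. Of 14 genes of ribosomal RNA synthesis, 1 rose in B10k S+ (median -0.02) and 2 rose in B10k S- (median -0.02), and 0 fell in either. In NODk S+ (median -0.24) and NODk S- (median 0.24) 0 rose and 1 fell. Polr1c, a subunit of RNA polymerases I and III, rose by 0.62 in B10k S+ and by 0.88 in B10k S-. Of all probesets tested, 7.37% rose in B10k S+ and 4.42% in B10k S-, and 8.66% fell in NODk S+ and 5.68% in NODk S-. The 46 short messages of other functions, which resemble the members in length, had medians of -0.06 in B10k S+, 0.14 in B10k S-, -0.33 in NODk S+ and -0.66 in NODk S- against PreS.

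**Figure D5:**
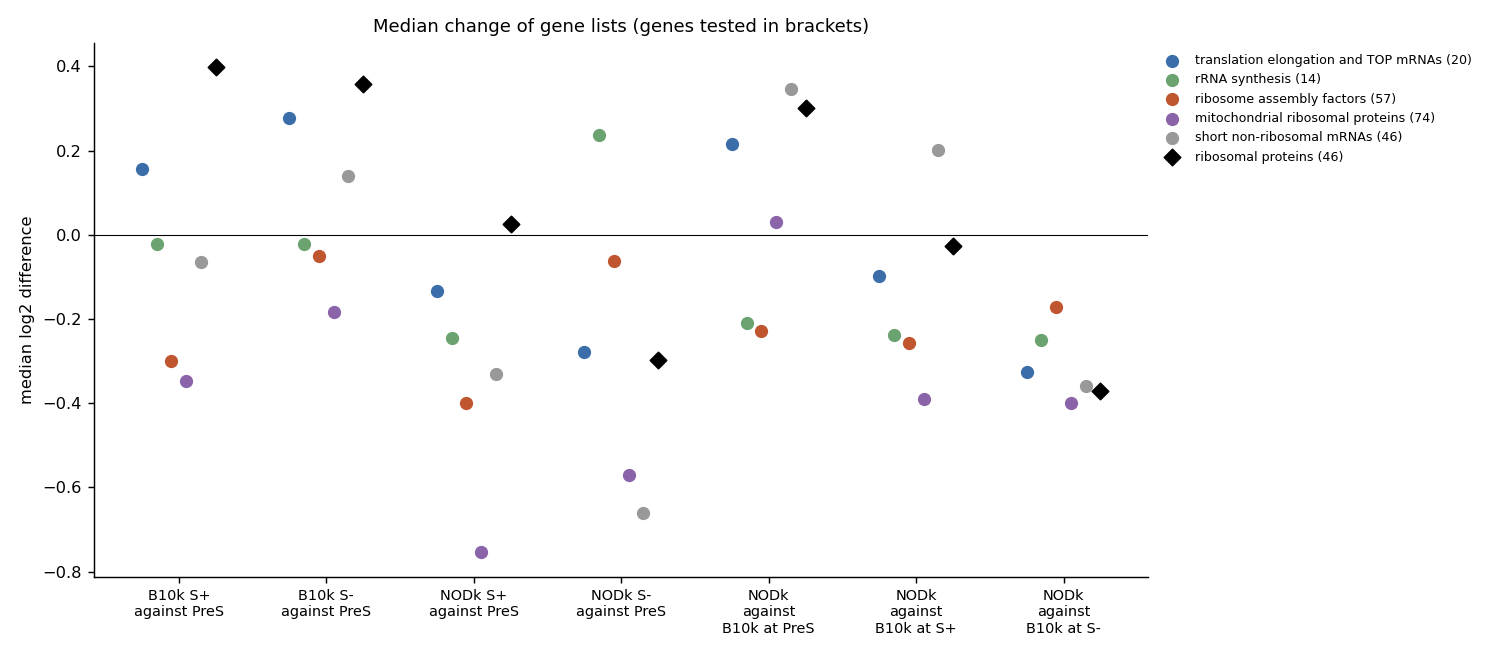
Median log2 difference of the cytosolic ribosomal protein genes and of the lists of related genes in 7 comparisons. The cytosolic genes lie at 0.40 in B10k S+ against PreS and the mitochondrial ribosomal proteins at -0.35, and in NODk S+ they lie at 0.03 and -0.75. Their median slopes on the 3' to 5' ratio were 0.16 and -0.08.

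Across the 9 comparisons between stages or strains, 12 of 414 tests on members passed (2.90%), against 8451 of 115542 over all probesets (7.31%), and they fell on 6 genes: Rpl12, Rps27l, Rpl39l, Rpl22l1, Rps6 and Rpl8. Of these, only Rpl22l1 and Rpl8 belong to the 35 members with a mean signal of at least 1000. The other 40 genes passed in none of the 9 by their brightest probeset, although second probesets of some, such as Rps9, did pass.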

How the data were processed

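Sorted thymocyte RNA was amplified in 2 rounds and hybridized to Affymetrix MOE430A arrays of 1 lot. The authors deposited MAS 5.0 signal intensity values on a linear scale, scaled to a trimmed mean of 150; no version is given in the sources used here. The number of arrays limits the precision. Genes were named from the platform annotation.

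From these values, 64 control probesets were removed, 33 zeros set to 0.1, and log2 values standardized per array. A probeset was kept where 1 or more of the 8 conditions had a signal of 32 or higher on each of its 3 arrays. Differences were fitted with limma (version 3.58.1, R 4.3.3), per strain with merged PreS arrays, and on all 24 arrays for strain contrasts and interactions, with Benjamini-Hochberg adjustment over all kept probesets and a threshold of 0.05. Intervals and SE come from limma. The code was tested on simulated data. Tables were handled in Python 3.11.15 with pandas 2.3.3.

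Members and lists were chosen with earlier results of these data known. Genes are named by a rule: those called, plus a list of extraribosomal, stalk and brightest members. Groups came from the sample titles. Pools are described as independent. Alternatives covered the normalization, floor, filter, probeset choice, blocks for replicate number and hybridization day, the 3' to 5' ratio, array weights, the methods' t-test and single arrays left out.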

Additional observations from a re-analysis of the deposited data

Results flagged for a closer look

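In groups of 6 arrays, an array was marked when its gap to the nearest other array on the log2 scale took more of the group's range than chance gives in about 5% of groups, and 2 of 96 were marked (the 46 genes, their share of the signal and the 3' to 5' ratio, in the PreS arrays of each strain). Rpl22, whose loss arrests the development of alpha beta T cells, was at 5216 in B10k PreS TCR replicate 3 and at 3125 to 3779 in the other 5 B10k PreS arrays. Rps9 was at 4030 in the same array and at 2640 to 2926 in the others. Without that array the B10k S+ comparison with PreS lost the calls of Rpl12 (adjusted p = 0.0839) and Rps27l (adjusted p = 0.0656).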

How the results depend on the processing

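Recomputed under each alternative, the number of the 46 genes that passed moved as follows, against 3 in B10k S+, 0 in B10k S-, 3 in NODk S+ and 3 in NODk S- (all against PreS), 0 in S- against S+ of either strain, and 1 between the strains at PreS, S+ and S-. With the replicate number as a block, it was 1 in B10k S+ and 2 between the strains at S+. Whether these numbers pair the samples is not known. The mean correlation of deviations was 0.0508 over 36 same-numbered pairs (from -0.314 to 0.632) and -0.0262 over other pairs. For same-numbered PreS and single positive arrays from the same kind of mice it ran from -0.243 to 0.545. With deviations taken from means of 3 arrays, these values cannot show whether pools came from the same mice. With hybridization day as a block it was 0 in B10k S+, NODk S+ and NODk S- and at all 3 strain comparisons, where 1115, 5, 0, 237, 112 and 139 of all 12838 probesets passed in that order. Array weights gave 1 in B10k S+, 4 in B10k S-, 13 in NODk S+, 6 in NODk S-, 11 in NODk S- against S+, 8 between strains at S+, 12 at S- and 2 in the strain difference of S+ against PreS, where 1994, 2381, 4053, 3983, 1794, 2969, 2654 and 572 of the 12838 probesets passed in that order. The ratio as a covariate gave 1 in B10k S+, 5 in NODk S+ and 2 between strains at S-. The methods' t-test after Benjamini-Hochberg adjustment gave 1 in B10k S+, and at the methods' own thresholds 0 in B10k S+, 1 in NODk S- against S+, 4, 3 and 2 between strains at PreS, S+ and S-, and 1 in each strain difference. With no filter it was 0 in B10k S+ and 0 between strains at S-. Quantile normalization gave 1 in B10k S-, 2 between strains at PreS and 0 at S-. The mean of all probesets gave 2 at each strain comparison. Leaving out probesets designed to match several transcripts, which left 20 genes, gave 1 in B10k S+, and 2, 0 and 0 between strains. All 24 arrays in 1 fit gave 9 in NODk S+ and 5 in NODk S-. Without the 3 arrays of highest ratio it was 0 in NODk S+ and 0 between strains at S+, and without arrays of log2 ratio over 3, added after seeing the data, it was 0 in B10k S+, NODk S+ and NODk S- and 0 between strains at PreS and S+. Leaving out 1 array at a time gave 0 to 3 in B10k S+, 0 to 1 in B10k S-, 0 to 0 in S- against S+ of both strains, 1 to 8 in NODk S+, 1 to 5 in NODk S-, 1 to 1, 1 to 8 and 0 to 1 between strains at PreS, S+ and S-, and 0 to 1 and 0 to 0 in the strain differences. Rpl39l in NODk S- and Rps6 at PreS between strains passed under every alternative that gave them a value except the day block and the removal of arrays of log2 ratio over 3. Rpl39l in NODk S+ did not pass with the MAS 5.0 scaling alone (adjusted p = 0.0715), the methods' t-test after adjustment (0.0536) or no filter (0.0769), nor Rpl12 in NODk S- with that t-test (0.0546) or no filter (0.0679). No called gene changed sign, but medians of the 46 genes did. In NODk S- against PreS the median was 0.46 with the day block, a value linked to PreS only through 1 NODk S+ and 1 NODk PreS array of the same day. In NODk S- against S+ the median was 0.04 after quantile normalization, 0.04 with the ratio as covariate and 0.05 without the 3 arrays of highest ratio. Between strains at PreS it was -0.02 after quantile normalization and -0.06 without arrays of log2 ratio over 3, and in the strain difference of S- against S+ it was 0.05 after quantile normalization, 0.03 without arrays of log2 ratio over 3 and about 0 without the 3 arrays of highest ratio. The medians nearest 0 took either sign, reaching -0.23 in NODk S+ against PreS with the ratio as covariate, 0.18 between strains at S+ with array weights and 0.07 in B10k S- against S+ without the probesets designed to match several transcripts. The cause of these changes was not tested.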

Other observations

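Regulators of ribosome production were measured as a list of 20 genes, chosen with earlier results of these data known. Mxd3, a partner of Max that represses Myc targets, fell by 4.06 in B10k S+ and by 2.24 in B10k S- against PreS on the log2 scale, with differences of -2.60 in NODk S+ and -3.02 in NODk S-. Mycn, a relative of Myc, differed by -1.41 in B10k S+, -1.15 in B10k S- and -1.25 in NODk S+, each of which passed. Mxd4 rose by 1.15 in B10k S+. Myc itself was lower in NODk than in B10k at PreS, by -1.01 (limma, adjusted p = 0.0141). In the list 1 gene rose and 2 fell in B10k S+, and 1 rose and 3 fell in NODk S+. Against PreS, 0 rose and 3 fell in B10k S-, and 1 rose and 1 fell in NODk S-. Of all probesets 16.8% passed in B10k S+, 14.8% in NODk S+, 11.2% in B10k S- and 11.2% in NODk S-.

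Of 11 genes tested in the p53 and Mdm2 arm, to which Rps27l also belongs by function, Zmat3, a p53 target, rose by 1.44 in B10k S+ and by 1.42 in NODk S+. Cdkn1a, the p53-induced inhibitor of cell division, fell by 2.35 in B10k S+. In NODk S+ it was 1.97 higher than in B10k S+ (limma, adjusted p = 0.0085), and the strain difference in its S+ response passed as well (2.69, adjusted p = 0.0203).

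The genes whose signal followed the mean of the ribosomal protein genes most closely over the 24 arrays, of 7782 compared, were Eif3f (r = 0.90), Eef1b2 (0.90), Atp5g3 (0.88), Slc25a5 (0.87) and Eef1a1 (0.86). These are descriptions over arrays that share scaling, stage and RNA quality. Eif3f is a subunit of an initiation factor, Eef1b2 and Eef1a1 belong to the elongation machinery, and Atp5g3 and Slc25a5 are mitochondrial.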
